A study of Mus musculus with 5 samples.

Results

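The 10 genes followed here are known genes of lipid-associated, repair-type macrophages, and they are described in kidneys after ischemia-reperfusion or a sham operation. The genes are Gpnmb, Trem2, Spp1, Fabp5, Fabp4, Apoe, Cd9, Cd63, Lgals3 and Arg1. They were picked by symbol, and all 10 were among the 32285 genes of the deposited single-cell matrix. The study took kidneys of male C57BL/6J mice, obtained at 6 to 8 weeks of age, which had either a sham operation or a clamp on the left renal pedicle with the right kidney left in place (unilateral ischemia-reperfusion, UIR). Injured kidneys were collected on day 1, 3, 14 or 28, the protocol names 3 mice for each kidney sample, and no transgene or drug was used in any of the groups. The labels list 5 samples, 1 for each UIR day and 1 for Sham, and a barcode suffix from 1 to 5 keeps 5 libraries apart in the pooled matrix. The study's methods speak of more matrices than that, and how these and the mice relate to the suffixes is not given in the sources used here. No label ties a suffix to a day or to Sham, so libraries are named here by number alone, nothing is compared between conditions, and the matrix counts as 1 pooled sample with no test.

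Lipid-associated macrophages take up cell debris and lipoprotein lipid at sites of tissue damage and pass it through the lysosome. Trem2 is a surface receptor for lipids and lipoproteins that signals through the adaptor Tyrobp, and Apoe, the lipid carrier of lipoproteins, is among its ligands. In the injured kidney such cells follow the infiltrating monocytes, and they are known from several tissues for the joint expression of Trem2, Gpnmb, Spp1 and Fabp5.

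A droplet was taken as a cell when its UMI total passed a cut set for its library. Below that cut it was taken when its RNA profile differed from that of empty droplets. Of these, 57798 cells remained with at least 200 genes and at most 25% mitochondrial UMIs. A UMI is a molecular tag that counts 1 captured transcript. Cell classes were set by gates on marker genes, none of them a member: 40085 cells passed 1 gate or the overlap of the classical monocyte and macrophage gates, 17300 passed none, and 413 passed gates of different classes and were left out. The macrophage gate (with C1qa, C1qb, C1qc, Adgre1, Ms4a7, Pf4, Mrc1, Fcgr1 and Csf1r among its markers) held 872 cells with a median depth of 3644 UMIs, from 267, 303, 126, 131 and 45 cells of libraries 1 to 5. The classical monocyte gate held 414 cells, of which 318 came from library 3, and the overlap held 104 cells, of which 86 came from library 3. The non-classical monocyte gate held 46 cells, the neutrophil gate 1220 cells and the proximal tubule gate 34374 cells. A gate is a range of a score and not a cell type: 122 cells lay just below the macrophage limit (80% to 100% of it) and 102 just above it (100% to 125%). In macrophage-gated cells the median cell held 62 UMIs of the macrophage list, 2 of the proximal tubule list and 0 of every other list. The labels give goblet cell as the cell type of every sample. The goblet genes Zg16, Clca1, Muc2, Fcgbp and Spdef, however, had 0, 2, 21, 41 and 43 UMIs in all kept cells. Library totals ran from 82426945 to 139382799 UMIs, and 354 barcode sequences were kept as cells in more than 1 library, 8 macrophage-gated cells among them. Levels are CPM, the UMIs of a gene summed over the cells of a class, relative to all their UMIs and scaled to 1000000, with exact Poisson 95% intervals that cover counting error only.

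Of the members, 7 have a promoter entry in RefSeq (GRCm38.p6). The 250 bases before the start site are shown for Gpnmb, Trem2 and Apoe, whose levels went together over classes and libraries. They are also shown for Spp1, which was highest in thick ascending limb-gated cells with libraries pooled. Capitals mark GAGGAA or its reverse complement TTCCTC, the core bound by PU.1, a transcription factor of myeloid cells. The windows are chr6:49036268-49036517 for Gpnmb on the plus strand, chr17:48346151-48346400 for Trem2 on the plus strand, chr7:19699189-19699438 for the most upstream Apoe start on the minus strand, and chr5:104434861-104435110 for the upstream Spp1 start on the plus strand.
Gpnmb: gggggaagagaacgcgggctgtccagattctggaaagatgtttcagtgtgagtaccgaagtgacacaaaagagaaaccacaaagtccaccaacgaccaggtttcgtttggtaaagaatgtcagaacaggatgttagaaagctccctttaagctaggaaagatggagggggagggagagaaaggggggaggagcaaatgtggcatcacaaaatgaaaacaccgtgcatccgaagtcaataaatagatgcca
Trem2: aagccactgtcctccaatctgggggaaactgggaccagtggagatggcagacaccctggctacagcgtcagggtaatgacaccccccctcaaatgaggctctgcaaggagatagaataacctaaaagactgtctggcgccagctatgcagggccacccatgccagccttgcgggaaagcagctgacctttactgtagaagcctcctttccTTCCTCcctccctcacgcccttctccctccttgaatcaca
Apoe: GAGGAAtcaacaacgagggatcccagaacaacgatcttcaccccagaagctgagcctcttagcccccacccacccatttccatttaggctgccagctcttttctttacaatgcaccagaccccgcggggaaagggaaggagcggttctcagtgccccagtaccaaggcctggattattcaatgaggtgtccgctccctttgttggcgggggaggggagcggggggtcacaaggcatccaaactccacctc
Spp1: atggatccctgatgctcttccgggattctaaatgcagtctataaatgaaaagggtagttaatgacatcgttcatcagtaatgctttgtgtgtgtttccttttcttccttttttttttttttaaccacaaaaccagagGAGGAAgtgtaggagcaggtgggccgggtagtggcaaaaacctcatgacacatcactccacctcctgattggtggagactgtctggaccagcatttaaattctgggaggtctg
The PU.1 core lay 40 bases before the start of Trem2, 113 before that of Spp1 and 250 before that of Apoe, and it was also found at Cd63, so that 5 of the 10 entries, from 4 of the 7 genes, held it, beside 23.3% of all 32851 promoter windows of this length. AP-1 (TGACTCA), the E-box CACGTG and the M-box core TCATGTG, each read on both strands, were in none of the 10 entries, against 4.46%, 6.02% and 3.25% of all windows. These matches describe letters and were not tested for binding.

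Trem2 was highest in macrophage-gated cells with libraries pooled. The gene lies on chromosome 17 from 48346401 to 48354147 (GRCm38, plus strand). It reached 521 CPM (500 to 543) there, with a UMI in 47.8% of the cells, against 96.9 CPM (82.8 to 113) in classical monocyte-gated cells and 240 CPM (198 to 289) in the overlap of both gates. In neutrophil-gated and proximal tubule-gated cells it stood at 4.14 and 0.614 CPM, and in empty droplets at 6.13 CPM. By library, macrophage-gated cells had 414, 607, 228, 735 and 13 CPM in libraries 1 to 5, the last from 1 UMI. Library 5 was far below the other libraries, and library 4 was the highest. In library 3 the overlap class had 249 CPM, slightly above the macrophage-gated 228 CPM. Within the 3 libraries that held at least 20 cells of both classes, the log2 ratio of macrophage-gated to classical monocyte-gated cells was 4.01, 1.17 and 2.61 (libraries 2, 3 and 4).

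Apoe was also highest in macrophage-gated cells with libraries pooled. The gene lies on chromosome 7 from 19696109 to 19699188 on the minus strand. Its level was 22775 CPM, with a UMI in 95.9% of these cells, followed by 7126 CPM in the overlap class, 3655 CPM in non-classical monocyte-gated and 1862 CPM in classical monocyte-gated cells, and none of these intervals overlapped its neighbour. Empty droplets held 589 CPM, above the 220 CPM of neutrophil-gated cells and the 165 CPM of proximal tubule-gated cells. Over libraries 1 to 5 the macrophage-gated level was 21055, 26684, 5859, 29483 and 12910 CPM, so that Apoe, unlike the other 9 members, was lowest in library 3 and not in library 5. In library 3 the overlap class had 6335 CPM, slightly above the macrophage-gated 5859 CPM. Of all Apoe UMIs in kept cells 53.7% came from macrophage-gated cells, which were 1.51% of the cells.

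Gpnmb, a transmembrane glycoprotein of lysosomes and melanosomes, was high in macrophage-gated cells, and in every other class its pooled level was below that of empty droplets. It lies on chromosome 6 from 49036546 to 49070929 on the plus strand. It reached 483 CPM (462 to 504) in macrophage-gated cells and at most 9.55 CPM in any of the other 16 classes, with 5.77 CPM (2.77 to 10.6) in classical monocyte-gated cells. Few cells carried the macrophage level: 63 of the 872 cells held 2035 of the 2083 UMIs, and the level was 233 CPM with a gate 2 times as strict and 159 CPM as a mean over cells. Below macrophages the intervals of neighbouring classes overlapped, and empty droplets held 10.5 CPM, so those levels are not read as expression here. The macrophage-gated levels were 317, 540, 133, 866 and 0 CPM in libraries 1 to 5. In library 5 no UMI was seen in 45 cells, and a count of 0 there allows up to 39.0 CPM. Empty droplets of library 2 carried 62.7 CPM of Gpnmb, more than those of any other library (1.11 to 17.0 CPM). Within libraries 1 and 3 some other classes were above their own droplets, such as overlap cells with 9.96 CPM against 3.93 CPM in library 3 and fibroblast/pericyte-gated cells with 10.5 CPM against 2.16 CPM in library 1. Each of these values came from 3 to 7 UMIs, and its counting interval held the level of the droplets. Only 96 of the 872 macrophage-gated cells had a Gpnmb UMI, and 0.487% of T/NK-gated cells, a class that should lack it, had 1, at median depths of 3644 and 1714 UMIs.

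Spp1, the secreted phosphoprotein osteopontin, was highest in some tubule classes, but not in proximal tubule-gated cells. It lies on chromosome 5 from 104435118 to 104441050 on the plus strand. Thick ascending limb-gated cells held 41929 CPM, intercalated-gated cells 35426 CPM and cells gated by injured tubule markers 21254 CPM, against 4315 CPM in macrophage-gated, 4611 CPM in classical monocyte-gated and 4250 CPM in neutrophil-gated cells. Principal-gated cells had 12705 CPM and distal convoluted tubule-gated cells 8054 CPM. Proximal tubule-gated cells, the largest tubule class, had only 2692 CPM, below these leukocyte classes, and 1487 CPM without library 3. Library 3 gave 101398 of the 151394 Spp1 UMIs of thick ascending limb-gated cells and 23212 of the 27622 of intercalated-gated cells. It gave 7774 of 7993 in classical monocyte-gated and 6307 of 7182 in neutrophil-gated cells. Its part was smaller in injured tubule-gated (13727 of 77283) and macrophage-gated cells (4817 of 18625). Without library 3 the order changed, to 22311 CPM in thick ascending limb-gated cells, 20018 CPM in injured tubule-gated cells and 13236 CPM in intercalated-gated cells. Among leukocytes macrophage-gated cells then had 3681 CPM, neutrophil-gated cells 899 CPM and classical monocyte-gated cells 621 CPM, so the near-equal pooled levels of these 3 classes were not seen outside library 3. The 63 macrophage-gated cells with at least 3 Gpnmb UMIs held 64.4% of the pooled Spp1 UMIs of the class, and the other 809 cells had 1914 CPM. Empty droplets held 10796 CPM, more than any leukocyte class. By library, macrophage-gated cells had 2145, 2969, 8523, 7401 and 351 CPM, T/NK-gated cells 145, 263, 7176, 958 and 985 CPM, and empty droplets 1164, 2854, 21884, 4675 and 2932 CPM. In library 3 macrophages and lymphocytes thus stood near the neutrophils (8807 CPM) and proximal tubule cells (8505 CPM), and all were below empty droplets. In libraries 1, 2 and 4 macrophage-gated cells were several-fold above T/NK-gated cells, and in library 5 they were below them. The share of free RNA in the Spp1 level of a class was not tested beyond these values and the subtraction given in the closing section.

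**Figure D1:**
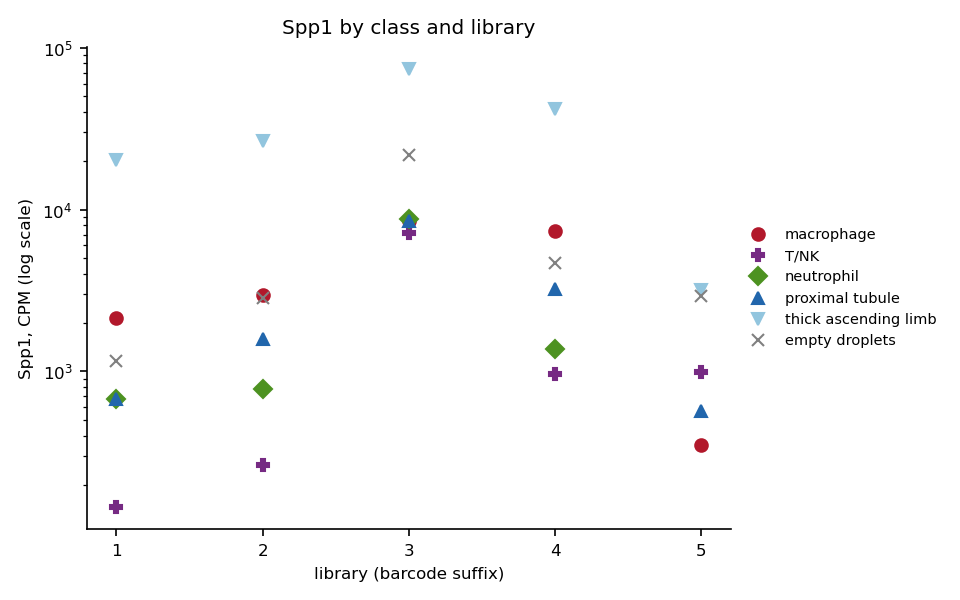
Spp1 in CPM on a log axis (vertical) by library number (horizontal) for 5 marker-gated classes with at least 20 cells in that library and for empty droplets. In library 3 the macrophage, T/NK, neutrophil and proximal tubule points lie between 7176 and 8807 CPM, below empty droplets at 21884 CPM, whereas in libraries 1, 2 and 4 macrophages lie above T/NK cells.

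Lgals3 (galectin-3, a secreted sugar-binding lectin) was shared by the whole monocyte and macrophage lineage and by some epithelium. It lies on chromosome 14 from 47367751 to 47386160 on the plus strand. Its level was 2263 CPM (2219 to 2309) in macrophage-gated cells and 1995 CPM (1929 to 2063) in classical monocyte-gated cells, of which 68.8% and 96.4% had a UMI. The overlap class followed with 1834 CPM, principal-gated cells with 1460 CPM, non-classical monocyte-gated cells with 1216 CPM and thick ascending limb-gated cells with 1185 CPM, and the intervals of the last 3 overlapped from neighbour to neighbour. Neutrophil-gated cells had 440 CPM, and proximal tubule-gated cells had 18.7 CPM, under the 186 CPM of empty droplets. Macrophage-gated levels by library were 1647, 2632, 2707, 2227 and 623 CPM, and the within-library log2 ratios to classical monocyte-gated cells stayed between 0.12 and 0.47. The 63 macrophage-gated cells with at least 3 Gpnmb UMIs held 43.4% of the Lgals3 UMIs of the class. The other 809 cells had 1595 CPM (1553 to 1637), below the pooled level of classical monocyte-gated cells.

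The fatty acid-binding proteins Fabp5 and Fabp4 carry fatty acids inside the cell, and their patterns had little in common. Both genes lie on chromosome 3, Fabp5 from 10012548 to 10016607 and Fabp4 from 10204088 to 10208576 on the opposite strand. Fabp5 reached 1443 CPM in macrophage-gated cells, 815 CPM in dendritic-gated cells and 658 CPM in the overlap, against 145 CPM in classical monocyte-gated cells and 12.2 CPM in proximal tubule-gated cells. Its macrophage-gated levels were 742, 1457, 1212, 2631 and 0 CPM over libraries 1 to 5. The 63 macrophage-gated cells with at least 3 Gpnmb UMIs held 72.7% of the Fabp5 UMIs of the class, and the other 809 cells had 491 CPM (468 to 515), below the dendritic and overlap levels. Fabp4 was an endothelial transcript here, with 1482 CPM in endothelial-gated cells, 380 CPM (277 to 508) in non-classical monocyte-gated cells, and 63.3 CPM (56.0 to 71.2) in macrophage-gated cells. In macrophage-gated cells it ran at 17.5, 121, 10.6, 52.2 and 0 CPM by library, beside 15.8, 64.3, 16.8, 34.7 and 12.4 CPM in the empty droplets of the same libraries. The macrophage level was thus above that of empty droplets in libraries 2 and 4, and in libraries 1, 3 and 5 its counting interval held the level of the droplets. Those 63 cells also held 94.5% of the Fabp4 UMIs of the class and left 4.33 CPM in the other cells. Only 4.01% of macrophage-gated cells had a Fabp4 UMI, and 41.3% of non-classical monocyte-gated cells did.

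The tetraspanins Cd9 and Cd63, membrane organisers of the cell surface and of late endosomes, were not highest in macrophages. Cd9 (chromosome 6, 125460266 to 125494791, minus strand) was led, with libraries pooled, by neutrophil-gated cells with 1049 CPM (1000 to 1099) and a UMI in 63.3% of the cells, followed by principal-gated cells with 940 CPM. This order was not that of every library: in library 1 thick ascending limb-gated (1392 CPM) and principal-gated cells (1174 CPM) were above neutrophil-gated cells (771 CPM), and in library 3 principal-gated cells (950 CPM) were above them (739 CPM). Macrophage-gated cells had 394 CPM and classical monocyte-gated cells 87.7 CPM. Neutrophil-gated Cd9 in libraries 1 to 4 was 771, 1454, 739 and 823 CPM, above the macrophage-gated 425, 451, 237 and 369 CPM in each. Cd63 (chromosome 10, 128900989 to 128912822, plus strand) was spread over the epithelium, at 1602 CPM in thick ascending limb-gated and 1598 CPM in proximal tubule-gated cells, whose intervals overlapped. Macrophage-gated cells held 1195 CPM of Cd63, with 1277, 1203, 973, 1267 and 610 CPM by library. Empty droplets held 2158 CPM pooled and 702, 768, 2764, 2186 and 2226 CPM by library, so that macrophage-gated cells were above them in libraries 1 and 2 and below them in libraries 3, 4 and 5.

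Arg1 (arginase, the enzyme that splits arginine into ornithine and urea) was found in macrophage-gated cells of libraries 1 to 4 and, in library 3, at its highest where monocyte and macrophage markers met. It lies on chromosome 10 from 24915221 to 24927484 on the minus strand. The overlap class held 686 CPM (613 to 766), macrophage-gated cells 219 CPM (205 to 234) and classical monocyte-gated cells 114 CPM (98.3 to 131). The other classes had at most 7.16 CPM and empty droplets 1.53 CPM. A UMI was seen in 35.6%, 11.2% and 7.49% of the cells of the first 3 classes and in 0.0974% of T/NK-gated cells. Macrophage-gated levels were 38.4, 149, 391, 503 and 0 CPM over libraries 1 to 5, and 86 of the 104 overlap cells came from library 3, where that class had 794 CPM. Library 3 gave 319 of the 320 Arg1 UMIs of the overlap and 194 of the 197 of classical monocyte-gated cells. Without it the overlap had 15.5 CPM (0.391 to 86.1, from 1 UMI in 18 cells), classical monocyte-gated cells 8.51 CPM (1.75 to 24.9) and macrophage-gated cells 193 CPM (179 to 208), so that macrophage-gated cells were then the highest class.

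**Figure D2:**
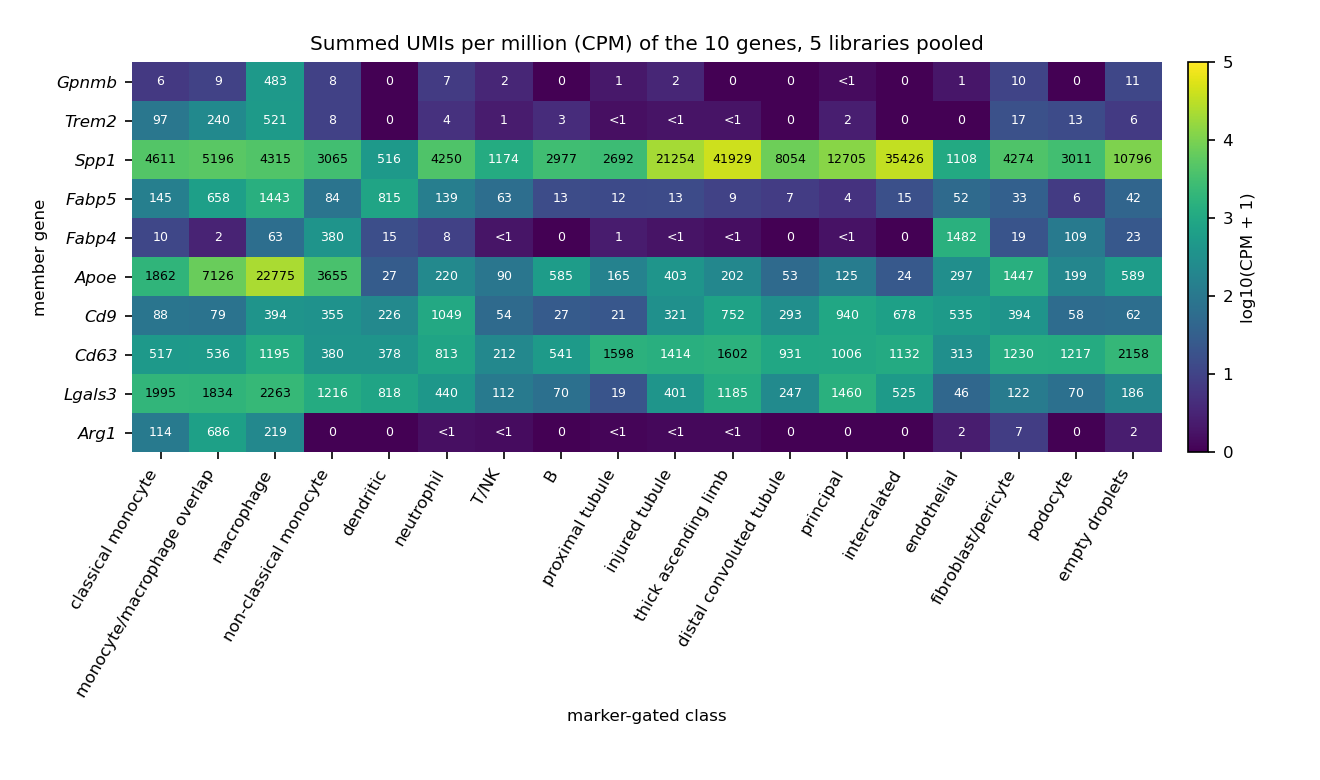
Heatmap of CPM for the 10 members (rows) in 17 marker-gated classes and in empty droplets (columns), all 5 libraries pooled; the colour is log10(CPM + 1) and each cell prints its CPM. Trem2, Gpnmb, Apoe and Fabp5 are highest in macrophage-gated cells with libraries pooled, Spp1 in thick ascending limb-gated cells, Fabp4 in endothelial-gated cells and Cd9 in neutrophil-gated cells, although in libraries 1 and 3 principal-gated cells exceed neutrophil-gated cells in Cd9. Arg1 is highest in the monocyte/macrophage overlap, where 319 of its 320 UMIs are from library 3, and Cd63 is highest in empty droplets.

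**Figure D3:**
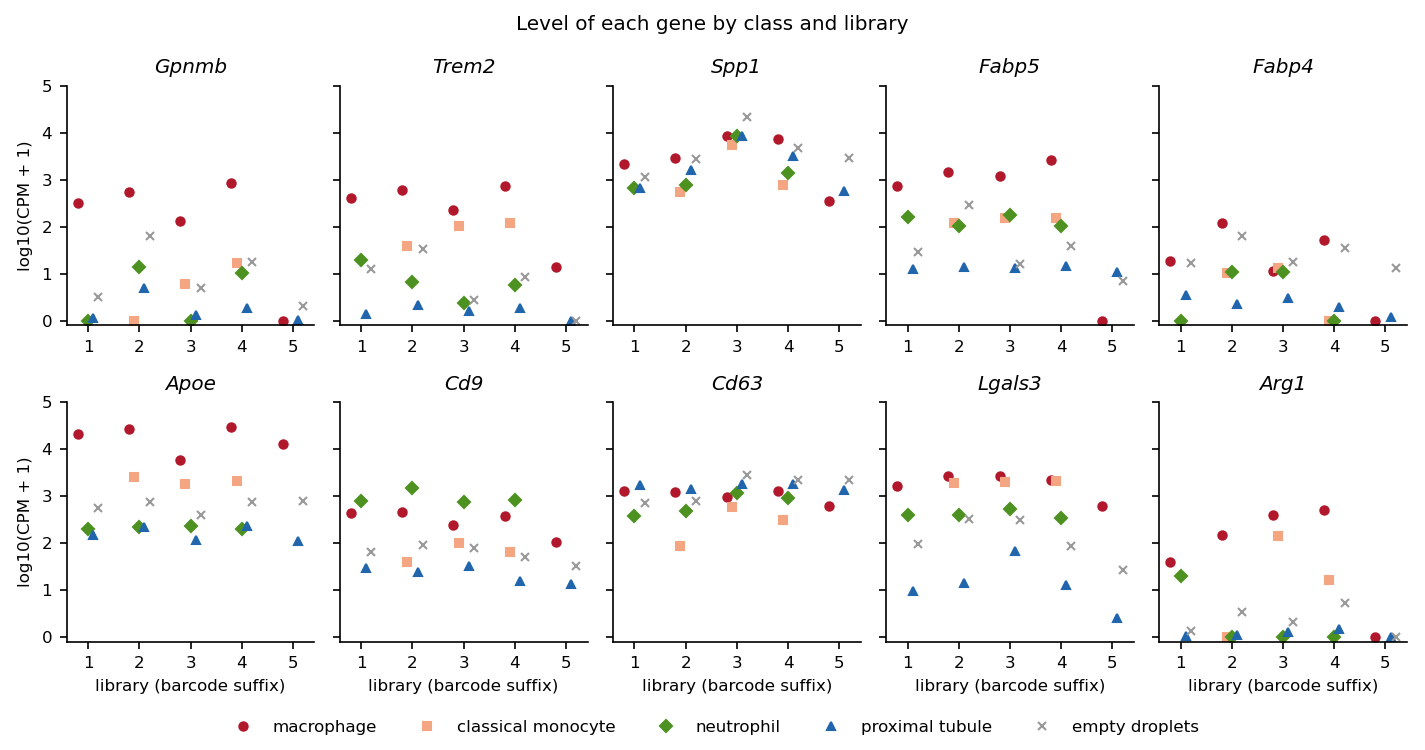
A panel for each member with log10(CPM + 1) on the vertical axis and the library number on the horizontal axis, for 4 marker-gated classes with at least 20 cells in the library and for empty droplets. Macrophage-gated points of library 5 are the lowest of the 5 libraries for 9 of the 10 members, and Apoe is lowest in library 3. The share of all genes lowest in library 5 was not counted.

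Library 5 had the lowest macrophage-gated level for most members. The share of all genes that were lowest there was not counted, so this is not read as particular to the members. The 45 macrophage-gated cells of library 5 had no UMI of Gpnmb, Fabp5, Fabp4 or Arg1. The macrophage list itself summed to 16794 CPM in them, within the 12989 to 19882 CPM of the other libraries. Proximal tubule markers summed to 2507 CPM in those 45 cells and to 618 to 1380 CPM in the macrophage-gated cells of the other libraries, and their part in the low member levels was not tested. The level of a member in a class also cannot tell apart fewer positive cells and less RNA per cell. A UMI was seen in 56.9% of macrophage-gated cells for Spp1, 29.4% for Fabp5, 76.5% for Cd63 and 39.6% for Cd9.

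Macrophage-gated cells were next compared with the classical monocyte-gated cells, the class from which infiltrating macrophages arise. Of the 10 members, 7 were at least 2-fold higher in macrophage-gated cells, 3 were within 2-fold and none was lower, while 9.87% of 10156 genes with at least 20 UMIs were as much higher. The log2 ratio of Gpnmb was 6.39 (counting interval 5.50 to 7.45), over a monocyte level of 10 UMIs that was below the level of empty droplets, so its size is not read further than as higher. Apoe was at 3.61, Fabp5 at 3.31, Fabp4 at 2.61, Trem2 at 2.43, Cd9 at 2.17 and Cd63 at 1.21. Arg1 (0.95), Lgals3 (0.18) and Spp1 (-0.10) were within 2-fold when pooled. The 63 macrophage-gated cells with at least 3 Gpnmb UMIs carried part of this. In the other 809 cells Fabp4 was 4.33, Cd63 956, Spp1 1914 and Lgals3 1595 CPM, beside 10.4, 517, 4611 and 1995 CPM in classical monocyte-gated cells. Arg1 was 145 CPM in those 809 cells, beside 114 CPM in the monocytes. Trem2 (334), Fabp5 (491), Apoe (18934) and Cd9 (277 CPM) in those 809 cells were still above the monocyte levels (96.9, 145, 1862 and 87.7 CPM). The median over the members was 2.30, beside -0.14 over all genes tested that had a UMI in both classes. Because 318 of the 414 monocytes came from library 3, pooling set them mostly against macrophages of other libraries. Within libraries 2, 3 and 4 the Spp1 log2 ratio was 2.44, 0.60 and 3.28, so that macrophage-gated cells were higher in each library although the pooled ratio was near 0, and without library 3 the pooled ratio was 2.57. Arg1 was likewise higher in macrophage-gated cells within libraries 3 (1.48) and 4 (5.00), and in library 2 it had 149 CPM against no UMI in the monocytes. Leaving out library 3 also raised Arg1 to 4.51, Cd63 to 2.44, Cd9 to 3.03 and Fabp4 to 4.65. The 96 monocytes then left held 3 UMIs of Arg1 and 1 of Fabp4. Pooled Fabp4 in monocytes, 10.4 CPM, was below the 23.2 CPM of empty droplets. Without library 1 or library 2 Arg1 passed 2-fold (1.29 and 1.12), without library 4 it was 0.24, and Fabp4 was 1.36 without library 2. Within library 3, Cd63 was 0.72 and Fabp4 -0.21, both short of 2-fold, and Fabp4 was also short of it thinned to 1000 UMIs (0.67) and as a mean over cells (0.95). Gpnmb, Trem2, Fabp5, Apoe, Cd9 and Arg1 were at least 2-fold higher within every library where both classes had a UMI.

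**Figure D4:**
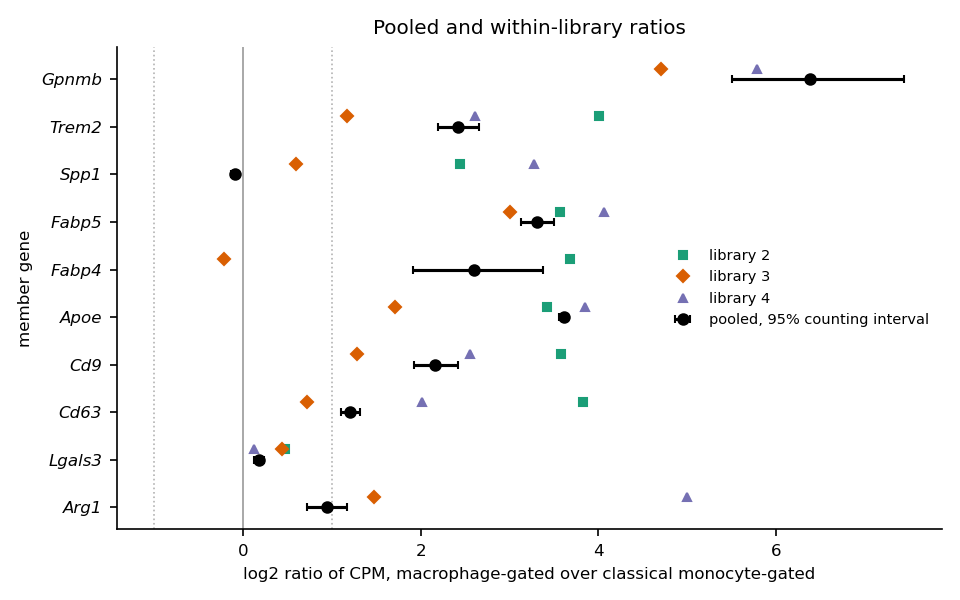
Log2 ratio of CPM in macrophage-gated over classical monocyte-gated cells (horizontal) for each member (vertical); black points are the pooled ratio with its 95% counting interval, coloured points the ratio within libraries 2, 3 and 4, and dotted lines mark 2-fold. Spp1 is at -0.10 pooled and at 2.44, 0.60 and 3.28 within libraries, and no point is drawn where a class had no UMI.

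Against the non-classical monocyte-gated cells, the patrolling monocytes of the blood, 6 members were higher by at least 2-fold, where 26.4% of 9301 genes were, and Fabp4 was lower, where 16.7% were. Fabp4 differed by -2.59 on the log2 scale (-3.05 to -2.10), and by -2.19 within library 2, the only library with 20 cells of both classes. Trem2 and Gpnmb had 1 UMI each in the 46 non-classical monocyte-gated cells, giving log2 ratios of 5.95 (3.47 to 11.2) and 5.84 (3.36 to 11.1). Arg1 had none, which makes it at least 8.65-fold higher in macrophage-gated cells when 3 UMIs are allowed over the class. This limit was lower without library 3. Arg1 was then 193 CPM in macrophage-gated cells and unseen in 27 non-classical monocyte-gated cells, with a counting interval up to 53.0 CPM. Fabp5, Apoe and Cd63 were higher by 4.10, 2.64 and 1.65. Cd63 was 0.96 without library 2 and 3.25 without library 3, and leaving out library 3 also took Spp1 past 2-fold (from 0.49 to 1.22), and Lgals3 from 0.90 to 1.11. Lgals3 was 1.07 without library 1, and Gpnmb and Trem2 were 5.22 and 5.30 without library 3.

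Against neutrophil-gated cells 7 members were at least 2-fold higher, where 26.0% of 10158 genes were, and Cd9 was lower, where 16.1% were. The Cd9 log2 ratio was -1.41 (-1.51 to -1.32), and it was below 0 in all 4 libraries compared (-0.86, -1.69, -1.64 and -1.16). Trem2 (6.97), Apoe (6.69), Gpnmb (6.21), Fabp5 (3.38), Fabp4 (2.93) and Lgals3 (2.36) were higher. Fabp4 was short of 2-fold with each cell thinned to 1000 UMIs (0.86), and its 8.28 CPM in neutrophil-gated cells was below the 23.2 CPM of empty droplets. Arg1 had 1 UMI in 1220 neutrophil-gated cells, a log2 ratio of 8.53 with a counting interval of 6.05 to 13.8. Trem2, Apoe, Gpnmb and Arg1 stood at 4.14, 220, 6.51 and 0.592 CPM in neutrophil-gated cells. These levels were below those of empty droplets (6.13, 589, 10.5 and 1.53 CPM). The sizes and order of the ratios of these members are therefore not read further than as higher. Cd63 (0.56) and Spp1 (0.02) were within 2-fold when pooled. Within libraries 1, 2 and 4 Spp1 was higher in macrophage-gated cells by 1.66, 1.93 and 2.43, and in library 3 the ratio was -0.05. Pooled without library 3, Spp1 was 2.03, Cd63 1.11, Gpnmb 5.57 and Arg1 7.56. Without library 2 Gpnmb was 7.78 and Fabp4 1.91, and without library 4 Arg1 was 7.78.

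Against proximal tubule-gated cells 8 members were at least 2-fold higher, where 21.3% of 15662 genes were. Arg1 had the largest log2 ratio, 10.4, from 35 UMIs in 34374 tubule cells, followed by Trem2 at 9.73, Gpnmb at 8.73 and Apoe at 7.11. The tubule levels of these members (0.162, 0.614, 1.14 and 165 CPM) were below those of empty droplets (1.53, 6.13, 10.5 and 589 CPM). Of the 247 Gpnmb UMIs of the tubule class, 122 were in 5 cells. The sizes and order of these ratios are therefore not read further than as higher. Spp1 was within 2-fold (0.68), with a range from -0.71 in library 5 to 1.67 in library 1, and Cd63 was lower in macrophage-gated cells in all 5 libraries (pooled -0.42). No member was lower by 2-fold, where 37.4% of the genes were. Without library 2 Gpnmb was 10.4 and Fabp4 4.26, without library 3 Spp1 passed 2-fold (1.31) and Lgals3 was 7.98, and without library 1 Fabp4 was 6.21.

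The overlap cells, which carried both monocyte and macrophage markers, lay between the pooled levels of the classes for 5 of the 10 members (Gpnmb, Trem2, Fabp5, Apoe and Cd63). The share of all genes with a level in between was not counted, so this number is not read as an intermediate state. For Gpnmb (8.58 against 5.77 CPM) and Cd63 (536 against 517 CPM) the intervals of overlap and classical monocyte-gated cells overlapped. Both Gpnmb levels were also below the 10.5 CPM of empty droplets. Macrophage-gated cells were at least 2-fold higher than overlap cells in 7 members, where 15.3% of 9450 genes were, and lower in Arg1, where 6.51% were. Gpnmb had 4 UMIs in the overlap (log2 ratio 5.81, 4.46 to 7.69), whereas Trem2 was higher in macrophage-gated cells by 1.12, Fabp5 by 1.13 and Apoe by 1.68 when pooled. Arg1 differed by -1.65 (-1.83 to -1.46). Without library 3, which left 18 overlap cells, Arg1 turned to 3.64 (1.16 to 8.95, from 1 UMI in the overlap), Spp1 from -0.27 to 3.81, Fabp5 was 2.06, Cd63 2.51, Trem2 1.61 and Apoe 1.07. Library 3, which held 86 of the 104 overlap cells and 126 macrophage-gated cells, was the only library with at least 20 cells of both. Within it Trem2 (-0.13) and Apoe (-0.11) were turned to slightly lower in macrophage-gated cells, and Fabp5 (0.78) and Cd63 (0.73) were short of 2-fold. Gpnmb (3.74) and Cd9 (1.36) were still higher by at least 2-fold there, and Arg1 was lower (-1.02).

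The members also went together within the macrophage gate. Of its 872 cells, 96 had a Gpnmb UMI and 417 a Trem2 UMI, and 94 cells had both. Gpnmb was seen in 22.5% of the cells with a Trem2 UMI and in 0.44% of those without. The level was 710 against 2.17 CPM, a log2 ratio of 8.36 (6.81 to 10.6). Cells with a Trem2 UMI were deeper, with a median of 5370 UMIs against 2670. With every cell thinned to 1000 UMIs, which left out 98 shallower cells, the shares were 17.0% and 2.93% and the log2 ratio was 2.99 (2.45 to 3.55). Thinned ratios within libraries 1 to 4 were 4.91, 3.01, 1.58 and 2.07, and the interval of library 3 included 0 (-0.22 to 3.30). All other members were higher in the thinned cells with a Gpnmb UMI (50 cells) than in those without (724 cells), Fabp5 by 3.44, Spp1 by 2.89, Arg1 by 2.20, Cd9 by 2.10, Trem2 by 1.93, Lgals3 by 1.65, Cd63 by 1.29 and Apoe by 1.03 on the log2 scale. Fabp4 was higher by 4.86, from so few UMIs that its interval ran from 3.17 to 6.75. Of the 8 other members with at least 20 UMIs in the thinned cells all 8 were at least 2-fold higher, where 10.4% of 4117 genes were. These cells were pooled over libraries, and within libraries 2 and 4, at full depth, Apoe was 0.55 in library 2 and Arg1 0.21 in library 4, both short of 2-fold. Trem2, Spp1, Fabp5, Fabp4, Cd9, Cd63 and Lgals3 were at least 2-fold higher in both. Cells with an Arg1 UMI (49 thinned cells) also had more Spp1, by 2.77 (2.63 to 2.91) when pooled. Apoe differed by -0.31 (-0.41 to -0.21) in the pooled thinned cells, but its direction was not the same in all libraries: in cells at full depth it was -0.55 and -0.41 in libraries 2 and 4 and 0.39 in library 3. Spp1 was higher in each of these 3 libraries at full depth (3.20, 1.86 and 1.40 in libraries 2, 3 and 4).

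The macrophage gate did not hold all of the Gpnmb transcripts. In kept cells 48.1% of the Gpnmb UMIs lay in macrophage-gated cells and 45.0% in cells that passed no gate. Cells with at least 3 Gpnmb UMIs were therefore looked at, a set chosen by its Gpnmb count and described without a test: 63 passed the macrophage gate, 66 passed no gate and 5 passed the proximal tubule gate. The 66 ungated cells were as deep as the gated ones, with medians of 10503 and 10934 UMIs, and came from libraries 2 (36 cells), 3 (16), 4 (11) and 1 (3), with none from library 5, while the 63 gated cells came from libraries 2 (28 cells), 4 (26), 3 (5) and 1 (4). Spp1 was 13691 CPM in them and 14136 CPM in the gated cells, Cd63 2119 and 2172 CPM, Cd9 823 and 870 CPM, and Lgals3 5759 and 4998 CPM. Fabp5 (3577 against 5338 CPM), Trem2 (799 against 1284 CPM) and Apoe (10337 against 38485 CPM) were lower in the ungated cells, and Arg1 was 697 against 524 CPM, although fewer of the ungated cells had an Arg1 UMI (27.3% against 49.2%). The macrophage markers, which set the gate, were lower by construction, with C1qa at 445 against 3643 CPM and Csf1r at 113 against 321 CPM. Tyrobp, Ctss and Cd68, which are expressed throughout the myeloid lineage and were looked at only after these cells had been found, had 2011, 2344 and 671 CPM in the ungated cells and a UMI in 81.8%, 78.8% and 77.3% of them. The gated cells had 3814, 3821 and 1133 CPM of these genes, with a UMI of each in 100% of the cells. Fcer1g, Laptm5 and Ptprc, looked at along with them, had a UMI in 77.3%, 71.2% and 48.5% of the ungated cells. In the gated cells these shares were 100%, 100% and 77.8%. The proximal tubule list summed to 2000 CPM in the ungated and 471 CPM in the gated cells, although the median cell held 4 and 3 of its UMIs. Of the 66 ungated cells, 22 scored highest for proximal tubule and 31 for macrophage. The part of that tubule signal in the values of the ungated cells was not tested.

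**Figure D5:**
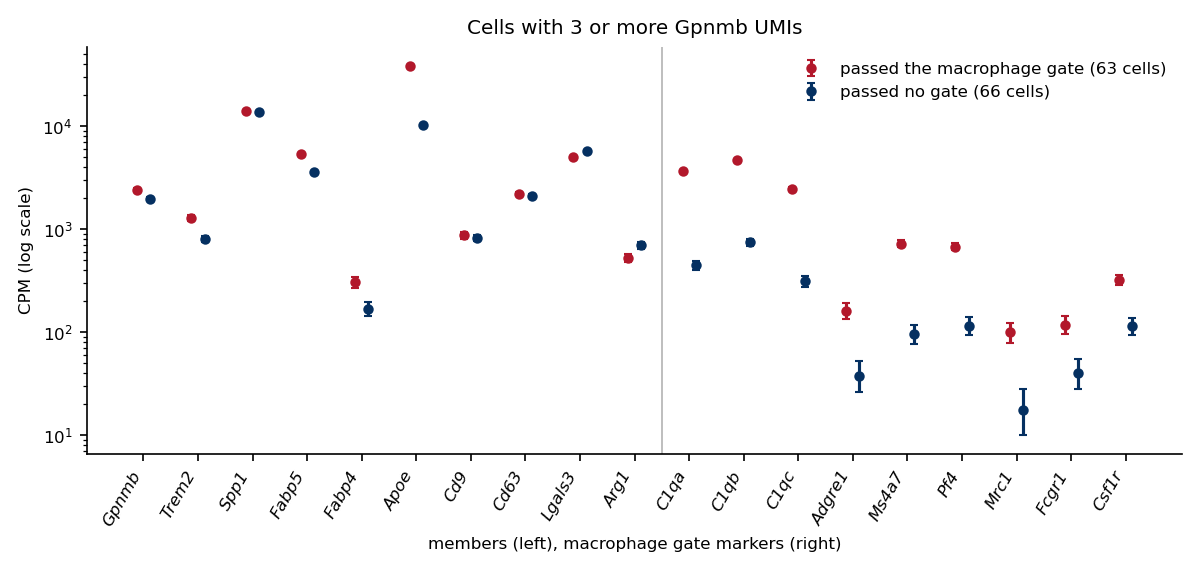
CPM on a log axis (vertical) of the 10 members and of macrophage gate markers (horizontal) in cells with 3 or more Gpnmb UMIs, split into 63 that passed the macrophage gate and 66 that passed no gate; bars are 95% Poisson intervals. Spp1, Cd9 and Cd63 lie close together in both sets, Apoe is 38485 against 10337 CPM, and the gate markers differ because they set the gate.

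Genes of the pathways around the members were counted by list. The lists were chosen with earlier results of these data known, so the counts are descriptions only. Of 60 list genes with enough UMIs, 29 were at least 2-fold higher in macrophage-gated than in classical monocyte-gated cells and 4 were lower, beside 9.87% and 10.7% of all genes tested, and their median log2 ratio was 0.66. The count of 29 was 17 with cells thinned to 1000 UMIs, where fewer genes reach 20 UMIs, and 27 without library 3. Of the 29, 26 were higher in every library compared, and within library 3 21 of the 25 with a UMI in both classes were at least 2-fold higher. The 29 had been picked by the pooled ratio of these same libraries, so the counts within libraries are no separate support. The same counts over all genes were not made. Values of single list genes are pooled unless a library is named. Among genes of lipid uptake, storage and efflux, 12 of 19 were higher and 1 lower. The cholesterol exporter Abca1 was higher by 3.38, the phospholipid transfer protein Pltp by 2.95 and the lipid droplet coat Plin2 by 1.03, while the sterol carrier Npc2 differed by 0.45. Among lysosome genes 9 of 17 were higher and none lower, with cathepsins Ctsd at 2.62 and Ctsb at 1.97 and the proton pump subunit Atp6v0d2 at 6.55 (4.06 to 11.9) from 1 UMI in monocytes. Of the Trem2 signalling genes 1 of 7 was higher, the adaptor Lat2 at 1.26. Tyrobp itself was -0.27 and the phospholipase Plcg2 -0.57, both negative within libraries 2, 3 and 4 as well. Of the matrix and repair factors 5 of 11 were higher and 1 lower. The elastase Mmp12 was at 7.29 and the growth factor Igf1 at 5.40, and fibronectin, Fn1, was lower at -1.25. Of the osteopontin receptors 2 of 6 were higher, integrins Itga9 at 4.18 (2.60 to 6.47, from 3 UMIs in monocytes) and Itgb5 at 1.81, and 2 were lower, Cd44 at -1.49 and Itga4 at -2.01. Itgb1 was at 0.04, and Itgb3, with 1 UMI in macrophages and 7 in monocytes, had too few to be counted. Cd44 and Itga4 are named for completing a count, after their values were seen.

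Over the 51 groups of class and library with at least 20 cells, log2(CPM + 10) of Trem2 went most closely with Arg1 (Pearson r of 0.89), Gpnmb (0.87) and Apoe (0.84) among the members. Spp1 went with Cd63 (0.76) and hardly with Trem2 (0.09) or Gpnmb (0.10), and Fabp4 reached at most 0.28 with any member. Other genes outside the gates were ranked where they had at least 200 UMIs over these groups. Of them, those most like Trem2 were C3ar1, Msr1, Ctsb, Cx3cr1 and Ms4a6d (0.91 to 0.85). Those most like Gpnmb were Fcrls, Gas2l3, Cxcl14, Ccl8 and Ctsb (0.88 to 0.80), and those most like Arg1 were Ccl24, Msr1, Ccl7, Folr2 and Ccl12 (0.89 to 0.84). Spp1 was most like Sprr1a, Tnfrsf12a, Cobl, Wwc1 and Mapk4 (0.78 to 0.74) and Fabp4 most like the endothelial genes Lrrc32, Ptprb, Eng, Tek and Fam167b (0.91 to 0.87). Groups of 1 library share its depth and free RNA, and groups of 1 class share the gate, so these values are descriptions without a test.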

How the data were processed

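Single cells of 5 kidney samples were profiled by 10x 3' RNA-seq. Reads had been mapped to mm10 by Cell Ranger 6.0, as the submitters' processing notes state, and the authors deposited raw UMI counts in 1 unfiltered matrix. It was read here as counts, and 0 columns of per-sample values were left unused. Cells were called per library after the steps that Cell Ranger uses. Barcodes above a UMI cut, from 2518 in library 5 to 3656 in library 1, were taken as cells without a profile comparison. Those below the cut were tested against a profile of empty droplets (barcodes of UMI rank 45000 to 90000). They were tested from at least 500 UMIs, and from 661 UMIs in library 3. Called cells were filtered at 200 genes and 25% mitochondrial UMIs. Each of 16 gates scored the mean, over its markers, of UMIs per 10000 relative to the top 100 cells (at most 1), and a cell passed at a score of 0.1 with 3 markers seen. The scoring rule was written after marker distributions had been seen, no doublet caller was run, and cells that passed gates of different classes were left out. The members and lists were chosen with earlier results of these data known. All 10 members are described; of each list the 2 genes of highest macrophage-gated CPM and the 2 of largest absolute log2 ratio are named, and for 5 members the 5 most correlated genes. Some markers and list genes are not reported here. Ratios carry exact conditional binomial 95% intervals, and shares Clopper-Pearson 95% intervals, which cover counting error only. Depth per library is given in the report as the range of totals. With 1 pooled sample no test was run. The calling and ratio steps were tested on simulated data. Positions are from GENCODE vM21 (GRCm38) and promoters from RefSeq. Fabp5, Fabp4 and Arg1 had no promoter entry used here. Python 3.11.15, numpy, scipy and pandas were used.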

Additional observations from a re-analysis of the deposited data

Results flagged for a closer look

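Cells that passed no gate enter none of the comparisons, yet they held 45.0% of the Gpnmb and 37.1% of the Arg1 UMIs of kept cells, beside 23.1% of all UMIs. Spp1 (57.1%), Lgals3 (50.5%), Cd9 (40.7%), Fabp5 (36.7%), Trem2 (27.2%) and Cd63 (24.7%) also exceeded that share, and Apoe (18.5%) and Fabp4 (17.2%) were below it. Ungated cells with at least 3 Gpnmb UMIs (66 cells) held 42.4% of all Gpnmb UMIs of kept cells. Ungated cells with at least 3 Arg1 UMIs (34 cells) held 35.4% of all Arg1 UMIs, and 20 of the 34 scored highest for macrophage, 8 for classical monocyte and 3 for proximal tubule. Each label group holds 1 sample, so no group was large enough to look for a sample far from the others.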

How the results depend on the processing

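No paired analysis of the label groups was possible because their samples cannot be matched to libraries and each group holds 1 sample. Cell classes were set side by side within each library. A test that pairs classes by library was left out, since the libraries are of unknown and unlike conditions and no test was planned on them. The number of members at least 2-fold higher stayed between 6 and 9 against classical monocyte-gated, 5 and 8 against non-classical monocyte-gated, 6 and 9 against neutrophil-gated and 8 and 9 against proximal tubule-gated cells under every alternative run, and it was within 1.5 times the reported count in each. The share of all genes past 2-fold was not recomputed under the alternatives, so these ranges do not show how far the members stood above that share. The list genes higher than in classical monocyte-gated cells fell from 29 to 17 when cells were thinned to 1000 UMIs, where fewer genes reach 20 UMIs. The log2 ratio of Gpnmb by Trem2 was 6.37 with a gate 2 times as loose and 2.99 in thinned cells. Leaving out libraries 1, 3, 4 or 5 gave 7.92 to 8.28; without library 2, and with the empty-droplet profile subtracted, no Gpnmb was left in cells without Trem2 and no ratio could be formed. Of 646 recomputed member ratios, 271 lay outside the counting interval of the reported value. Of the 478 whose reported value was at least 2-fold, all kept their direction and 474 stayed at least 2-fold. The others were Fabp4 over classical monocyte-gated cells as a mean over cells (0.95) and thinned (0.67), and Fabp4 over neutrophil-gated cells thinned (0.86). The last was Cd63 over non-classical monocyte-gated cells without library 2 (0.96). These ratios include neither those within 1 library nor the overlap comparison, where Arg1 turned direction without library 3. The Gpnmb level in macrophage-gated cells, 483 CPM, was 233 CPM with a gate 2 times as strict, 623 CPM with a gate 2 times as loose and 159 CPM as a mean over cells; the cause was not tested. With the empty-droplet profile subtracted, Spp1 in macrophage-gated over classical monocyte-gated cells was 7.28 on the log2 scale. The subtraction stops at 0. In library 3, which held 318 of the 414 monocytes, Spp1 was 5630 CPM in monocytes and 21884 CPM in empty droplets. The size of this ratio is therefore not read further than as higher. Without library 3, and with nothing subtracted, the Spp1 ratio was 2.57. The alternative of cells with less than the median tubule signal was added after the data were seen. A count of 0 in the 45 macrophage-gated cells of library 5 allows up to 39.0 CPM, which limits what can be said of Gpnmb, Fabp5, Fabp4 and Arg1 there.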
